A study of Mus musculus with 8 samples.

Results

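Messenger RNA of 10 genes of heme and iron handling was followed in macrophages sorted from the infarcted mouse heart and cultured with or without interleukin 21 (IL-21). The genes are Hmox1 and Blvrb (heme breakdown), Bach1 and Spic (transcription factors tied to heme), Slc40a1 and Cp (iron export), Tfrc and Slc11a1 (iron uptake and recycling), and Fth1 and Ftl1 (iron storage). All 10 were present among the 53342 gene identifiers of the deposited tables. They were chosen by name with their CPM in these libraries already known, in particular the difference between libraries of replicate number 1 and number 2, so that difference is described here without a test. The effect of IL-21 and the difference between the macrophage subsets were tested.

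The donors were wild type mice of the C57BL/6 strain aged 8 weeks, and their hearts were taken 3 days after an infarction. Macrophages were sorted by the surface antigen Ly6C into Ly6Clo (little Ly6C) and Ly6Chi (much Ly6C) cells, and each subset was kept for 24 hours with 100 ng/mL IL-21 or without it. This gives 4 groups of 2 libraries: Ly6Clo with IL-21, Ly6Clo without IL-21, Ly6Chi with IL-21 and Ly6Chi without IL-21. The sample titles number the libraries of each group 1 and 2, and the labels do not say whether a number stands for a mouse, a sort, a culture or a day. P values thus cover only how far these samples lie apart, and that spread may be technical. All cells had been in culture for a day in medium with 10% serum and 2-mercaptoethanol, and cells read directly after sorting are not analysed here.

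Macrophages recycle iron from dying red cells. Heme oxygenase 1, the product of Hmox1, opens the heme ring and releases iron, carbon monoxide and biliverdin, which biliverdin reductases turn into bilirubin. The iron is stored in ferritin, a shell of heavy (Fth1) and light (Ftl1) chains, or leaves the cell through ferroportin, the product of Slc40a1. Heme inactivates the repressor BACH1, and in the mouse this permits transcription of Hmox1 and of Spic, a factor needed by the red pulp macrophages of the spleen. Iron in transferrin enters through the transferrin receptor, the product of Tfrc. Iron regulatory proteins bind hairpins called iron-responsive elements when iron is scarce. Bound in a 5′ untranslated region they block translation, and bound in the 3′ untranslated region of Tfrc they protect the message.

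The hairpins of the ferritin and transferrin receptor messages are shown because these genes stand at opposite ends of that switch. Untranslated regions of GENCODE M21 transcripts (GRCm38) were searched on the message strand for the motif CNNNNNCAGTGN followed by 5 bases that pair with the 5 bases before the loop, counting G-U pairs. Capitals mark the unpaired C and the loop.
Fth1, 5′ untranslated region, chr19:9982732-9982761, plus strand: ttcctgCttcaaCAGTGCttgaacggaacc
Ftl1, 5′ untranslated region, chr7:45459778-45459807, minus strand: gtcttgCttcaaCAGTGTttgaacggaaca
Tfrc, 3′ untranslated region, chr16:32631219-32631248, plus strand: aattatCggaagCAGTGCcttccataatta
Tfrc, 3′ untranslated region, chr16:32631598-32631627, plus strand: cattatCgggagCAGTGTcttccataatgc
Tfrc, 3′ untranslated region, chr16:32631663-32631692, plus strand: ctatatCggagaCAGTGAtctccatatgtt
Tfrc, 3′ untranslated region, chr16:32631710-32631739, plus strand: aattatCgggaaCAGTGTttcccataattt
The ferritin chains share the same stem around the loop, and the 4 matches in Tfrc have other stems. Such a match was present in the 5′ untranslated region of 0.137% of 20499 genes and in the 3′ untranslated region of 0.607% of 20916 genes. Of the wider list of heme and iron genes examined below, Alas2 had a match, in its 5′ untranslated region, and it had 0 counts in all 8 libraries. Whether Hmox1 and Slc40a1 have a match is not reported here, and hairpins that depart from the motif would be missed. A match describes the letters and is no measurement of binding.

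Deposited totals were 224329 to 483593 counts per library. CPM, counts per 1000000 of the TMM-scaled total, is the unit of all levels here, and 3 counts were worth 6.58 to 14.9 CPM. The libraries numbered 2 were deeper than those numbered 1 in Ly6Clo (444670 against 269064 with IL-21, and 483593 against 257385 without), while in Ly6Chi with IL-21 the order was the opposite. All of 8 macrophage markers except Itgam, listed at 0, were detected. Their summed level was 8870 to 11943 CPM in libraries numbered 1 and 7414 to 7786 CPM in those numbered 2. The 5 Ly6Chi markers summed to 173 to 449 CPM in Ly6Clo and 833 to 981 CPM in Ly6Chi libraries. That sum does not speak for each marker. Ly6c2 averaged 47.9 CPM in Ly6Clo and 458 CPM in Ly6Chi. In libraries numbered 1, with and without IL-21, Ccr2 had 168 and 116 CPM in Ly6Clo against 97.9 and 36.9 CPM in Ly6Chi. F13a1 had 220 and 97.6 CPM there against 184 and 71.7 CPM. In those numbered 2 both were lower in Ly6Clo. Socs3, a feedback inhibitor that IL-21 induces through STAT3, averaged 157 ± 50.7 CPM with IL-21 and 26.2 ± 16.8 CPM without (SD, n = 4 each).

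Hmox1 (ENSMUSG00000005413, chromosome 8, 75093621 to 75100589, plus strand) split the 8 libraries into a low and a high set, which were the libraries numbered 1 and those numbered 2. In Ly6Clo with IL-21 the libraries numbered 1 and 2 had 4087 and 13837 CPM, and in Ly6Clo without IL-21 they had 2932 and 10256 CPM. In Ly6Chi with IL-21 they had 3957 and 12486 CPM, and in Ly6Chi without IL-21 they had 2619 and 7865 CPM. Every library numbered 1 lay below every library numbered 2, and within either number both stimulated libraries lay above both unstimulated ones. The mean was 3399 ± 733 CPM in libraries numbered 1 and 11111 ± 2620 CPM in those numbered 2 (SD, n = 4 each). The log2 difference, number 1 minus number 2, averaged -1.70 with an SD of 0.10 over the 4 groups, a level 3.25-fold lower in number 1. In single libraries Hmox1 took 0.245% to 1.26% of all deposited counts.

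**Figure D1:**
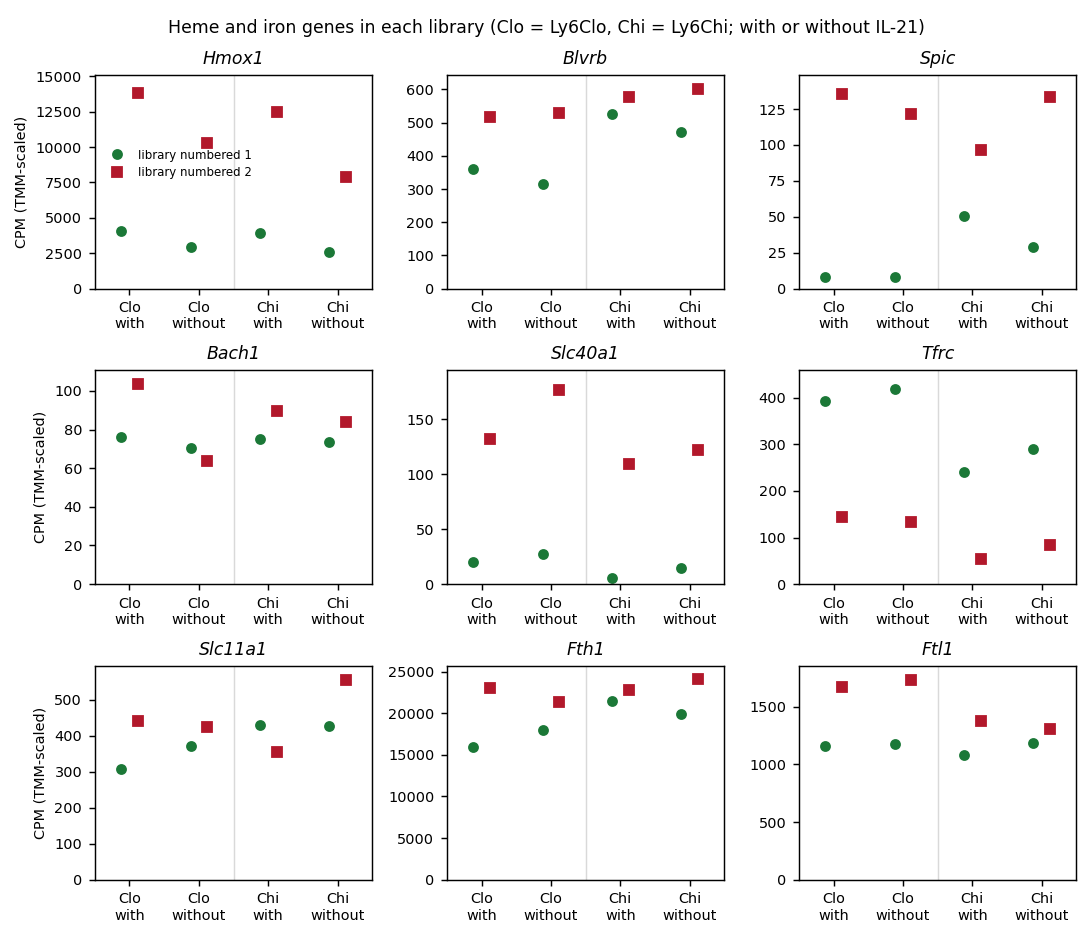
CPM (TMM-scaled, linear axis from 0) of 9 heme and iron genes in each of the 8 libraries, with Ly6Clo left of Ly6Chi and IL-21 left of no IL-21, green circles for libraries numbered 1 and red squares for those numbered 2. Hmox1, Spic, Slc40a1 and Ftl1 have all 4 red squares above all 4 green circles, Tfrc has them below, and the other 4 genes overlap; Cp, with 0 to 3.92 counts per library, is not drawn.

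Blvrb (ENSMUSG00000040466, chromosome 7), which encodes biliverdin reductase B, differed less. Its levels in libraries numbered 1 and 2 were 362 and 516 CPM in Ly6Clo with IL-21, 316 and 530 CPM in Ly6Clo without, 527 and 577 CPM in Ly6Chi with, and 473 and 600 CPM in Ly6Chi without. Number 1 was the lower in all 4 groups, by a mean log2 difference of -0.43 (SD 0.26), but the ranges of the 2 numbers overlapped.

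Bach1 (ENSMUSG00000025612, chromosome 16), the repressor that heme inactivates, differed much less between the numbers than Hmox1. It had 17 to 42 counts per library, or 70.6 to 75.9 CPM in libraries numbered 1 and 63.6 to 104 CPM in those numbered 2. The log2 difference of number 1 minus number 2 was -0.17 (SD 0.23), and 1 of the 4 groups had the higher value in number 1. BACH1 is controlled by heme as a protein, which these libraries do not measure.

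Spic (ENSMUSG00000004359, chromosome 10, 88674772 to 88685015, minus strand) was near the limit of detection in some libraries and readable in others. In Ly6Clo with IL-21 the libraries numbered 1 and 2 had 7.99 and 136 CPM, and in Ly6Clo without IL-21 they had 8.30 and 122 CPM. In Ly6Chi with IL-21 they had 50.8 and 96.8 CPM, and in Ly6Chi without IL-21 they had 28.7 and 133 CPM. Both Ly6Clo libraries numbered 1 held 2 counts, against 55 with IL-21 and 55.5 without in those numbered 2. The numbers did not overlap, but the difference was uneven, with a mean log2 difference of -2.29 and an SD of 1.12.

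Slc40a1 (ENSMUSG00000025993, chromosome 1, 45908068 to 45926523, minus strand), the iron exporter ferroportin, had the lowest mean log2 difference, number 1 minus number 2, of the 10 genes, although Spic was lower than it in both Ly6Clo groups. The libraries numbered 1 and 2 had 19.99 and 132 CPM in Ly6Clo with IL-21, and 27.0 and 177 CPM in Ly6Clo without. In Ly6Chi with IL-21 they had 5.65 and 109 CPM, and in Ly6Chi without IL-21 they had 14.3 and 122 CPM. In counts this was 16.5 over the 4 libraries numbered 1 against 188 over the 4 numbered 2. The mean log2 difference was -2.66 (SD 0.38), or 6.30-fold lower in number 1, on a scale with a prior count of 2 that pulls low values together. No library numbered 1 reached 10 counts, so the gene passed the filter on low counts through the libraries numbered 2, and so did Spic but for 1 library numbered 1.

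Tfrc (ENSMUSG00000022797, chromosome 16, 32608920 to 32632794, plus strand), the transferrin receptor, ran the other way. The libraries numbered 1 and 2 had 394 and 144 CPM in Ly6Clo with IL-21, and 419 and 134 CPM in Ly6Clo without. In Ly6Chi with IL-21 they had 241 and 54.4 CPM, and in Ly6Chi without IL-21 they had 289 and 83.9 CPM. All libraries numbered 1 lay above all numbered 2, with a mean log2 difference of 1.68 (SD 0.25). The mean was 336 ± 84.7 CPM in number 1 and 104 ± 42.3 CPM in number 2 (SD, n = 4 each).

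Export set against uptake gave a single value per library, log2 CPM of Slc40a1 minus that of Tfrc, which serves to compare libraries and not the genes. It was -3.90, -3.65, -4.31 and -3.80 in the libraries numbered 1 of Ly6Clo with, Ly6Clo without, Ly6Chi with and Ly6Chi without IL-21. In those numbered 2 it was -0.12, 0.38, 0.92 and 0.51 in the same order. The gap between the numbers was wider than the range within either of them. In the libraries numbered 1 the Slc40a1 part rests on 1.5 to 6.5 counts, near the prior count of 2, so those values are imprecise.

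The ferritin chains differed little by comparison. Fth1 (ENSMUSG00000024661, chromosome 19) had 16006 to 21494 CPM in libraries numbered 1 and 21324 to 24106 CPM in those numbered 2, with number 1 lower in all 4 groups by a mean log2 difference of -0.28 (SD 0.18). It was 1.49% to 2.22% of all deposited counts. Ftl1 (ENSMUSG00000050708, chromosome 7) had 1084 to 1184 CPM in number 1 and 1308 to 1737 CPM in number 2, with no overlap and a mean log2 difference of -0.39 (SD 0.19). Ftl1 has near-identical copies that share reads with it, so its count is uncertain. The copies named Ftl1-ps and Ftl2-ps held 15.8% to 23.8% of the summed counts.

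The other members did not separate the numbers. Slc11a1 (ENSMUSG00000026177, chromosome 1), which encodes NRAMP1, the metal transporter of the phagosome, had 307 to 430 CPM in number 1 and 355 to 554 CPM in number 2 (mean log2 difference -0.20, SD 0.34). Cp (ENSMUSG00000003617, chromosome 3), ceruloplasmin, which oxidises exported iron, had 2.5 counts over the libraries numbered 1 and 5.92 over those numbered 2. It failed the filter on low counts and was not tested, and a difference would not have been detectable at this depth.

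**Figure D2:**
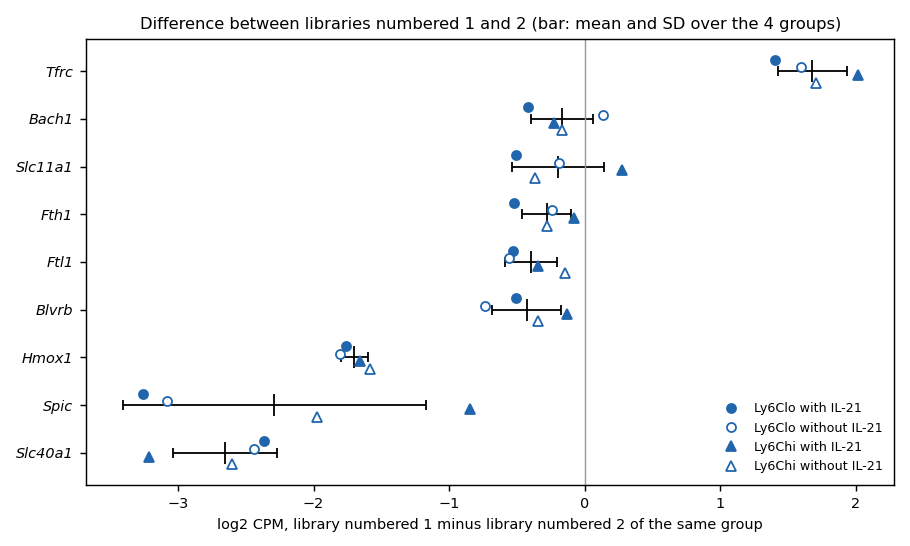
Log2 CPM of the library numbered 1 minus that of the library numbered 2 in the same group for the 9 genes that passed the filter, with circles for Ly6Clo, triangles for Ly6Chi, filled symbols for IL-21 and open ones for none; black bars are the mean and SD over the 4 groups. Tfrc lies to the right at 1.68, Hmox1, Spic and Slc40a1 lie to the left at -1.70, -2.29 and -2.66, and the other 5 lie between -0.43 and -0.17.

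Counted together, 4 of the 9 tested genes had all libraries numbered 1 below all numbered 2, where 5.96% of the 5256 genes tested did. Tfrc was the 1 gene with the opposite order, where 5.1% of all genes tested had it. Number 1 was lower in all 4 groups for 6 genes and higher in all 4 for 1, against 14.5% and 14% of all genes tested. The genes were chosen for this contrast. Slc40a1 and Spic also passed the filter on low counts through the libraries numbered 2, where they are high, but for 1 library numbered 1 of Spic. These shares, and the ranks that follow, are thus a description. Among all genes ordered by the mean difference, Slc40a1 was 3rd, Spic 4th and Hmox1 9th from the end lowest in number 1, and Tfrc was 3rd from the other end.

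Some marker sums differed by number as well. The 4 endothelial markers summed to 56.1 to 137 CPM in number 1 and 189 to 338 CPM in number 2, nearly all of it Kdr. Tek was at 0, and Pecam1 and Cdh5 averaged 0.375 and 0.25 counts per library, so this sum speaks for Kdr alone. The 7 fibroblast markers (15.8 to 116 CPM in number 1 and 32.9 to 160 CPM in number 2) and the 5 dendritic cell markers (1.88 to 27.0 CPM in number 1 and 4.96 to 87.8 CPM in number 2, with Cd209a at 0) were lower in number 1 in all 4 groups, with overlapping ranges. Among the macrophage markers, Lyz2 had 4238 to 6773 CPM in number 1 and 2489 to 3446 CPM in number 2, and Csf1r was also higher in number 1 without overlap. Fcgr1 ran the other way, at 501 to 653 CPM in number 1 and 709 to 1048 CPM in number 2, so the macrophage sum does not speak for each marker. Erythroid markers summed to 0 to 11.3 CPM in number 1 and 3.66 to 33.7 CPM in number 2, with Alas2 and Slc4a1 at 0. The 9 neutrophil markers summed to 66.4 to 183 CPM in number 1 and 104 to 137 CPM in number 2. Nearly all of that was S100a8 and Csf3r, while Retnlg, Ngp, Mpo and Elane were at 0. Neither of these 2 lists had the same direction in all 4 groups. In Ly6Chi with IL-21, a single pair of libraries, number 1 was the deeper library (287131 against 224329 counts). Hmox1, Slc40a1, Spic and Tfrc differed there in the same directions as in the other groups. Spic had a log2 difference of -0.85 there, against -3.26 and -3.08 in Ly6Clo with and without IL-21 and -1.98 in Ly6Chi without. The part of the marker levels and of depth in the difference between the numbers was not tested. Whatever a number stands for, a shared mouse, sort, culture or batch cannot be told apart here. In bulk samples fewer cells of a kind and less RNA per cell cannot be told apart either.

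The next comparison asked whether IL-21 changed these genes, over 4 libraries with IL-21 and 4 without. Without regard to the number, 0 of the 9 tested genes passed edgeR's quasi-likelihood test at an adjusted p under 0.05, where 0.171% of all genes did. At an unadjusted p under 0.05 there were also 0, where 5.33% of all genes passed, and DESeq2 and limma-voom called 0. In 0 of the 9 did all 4 libraries with IL-21 lie above, or all lie below, the 4 without, where 2.23% and 1.43% of all genes did. The median log2 fold change of the 9 was -0.03, against -0.01 over all 5256 genes. The mean of Hmox1 was 8592 ± 5306 CPM with IL-21 and 5918 ± 3760 CPM without (SD, n = 4 each). The log2 fold change was 0.54 with an SE of 0.78 (edgeR adjusted p 0.9997).

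Hmox1 was higher with IL-21 when libraries of the same number were compared with each other. The log2 CPM, with minus without IL-21, was 0.48 in Ly6Clo numbered 1, 0.43 in Ly6Clo numbered 2, 0.59 in Ly6Chi numbered 1 and 0.67 in Ly6Chi numbered 2. The level was higher with IL-21 in 4 of 4 such pairs. In the same edgeR fit with the number added as a block, the averaged log2 fold change was 0.54 (SE 0.09), or 1.46-fold, with an adjusted p of 0.000703. The genes were chosen for their difference between the numbers, and the choice to pair by number was taken from these data. The SE and p values with the block may thus be too small. Under that block 1 of the 9 genes passed, where 1.14% of all genes did. The call was kept in 8 of 8 fits with the block and 1 library left out (0.51 to 0.59), and DESeq2 and limma-voom with the block gave adjusted p values of 0.000321 and 4.09e-05.

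Within the subsets the blocked log2 fold change of Hmox1 was 0.45 (SE 0.13) in Ly6Clo at an edgeR adjusted p of 0.156. It passed in 1 of 8 fits with 1 library left out, the one without the Ly6Chi library with IL-21 numbered 1 (0.46, edgeR adjusted p 0.0393), and with limma-voom (adjusted p 0.0452). In Ly6Chi it was 0.63 (SE 0.13), with an edgeR adjusted p of 0.0184. The Ly6Chi call was kept in 3 of 8 such fits. It was lost without either Ly6Chi library that had no IL-21, at 0.73 (edgeR adjusted p 0.0814) without number 1 and 0.55 (edgeR adjusted p 0.361) without number 2. It was also lost without the Ly6Chi library with IL-21 numbered 1 (0.61, edgeR adjusted p 0.0587), and without the unstimulated Ly6Clo libraries numbered 1 or 2 (0.63 each, edgeR adjusted p 0.0655 and 0.0521). DESeq2 with the block gave an adjusted p of 0.0528 in Ly6Chi and limma-voom gave 0.00256. The direct test of the difference between the subsets' effects, Ly6Clo minus Ly6Chi, gave -0.18 (SE 0.18) and an edgeR adjusted p of 0.9998 with the block, so the subsets were not shown to differ. Without the block, 0 of the 9 genes passed in Ly6Clo, in Ly6Chi or for the difference, where 0.133%, 0.019% and 0% of all genes did. With it these shares of all genes were 0.552%, 0.266% and 0.019%. In each of these 3 comparisons 0 members had an unadjusted p under 0.05 without the block, where 3.52% of all genes did in either subset and 1.75% for the difference, and DESeq2 and limma-voom called 0.

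The exporter and the receptor did not pass for IL-21 under either fit. With the block the averaged log2 fold change was -0.34 (SE 0.25) for Slc40a1 and -0.17 (SE 0.16) for Tfrc, and 0.08 (SE 0.30) for Spic. The Slc40a1 level was lower with IL-21 in all 4 pairs of equal number, by 0.15 to 0.76 on the log2 scale, from few counts in those numbered 1. The ferritin chains were at -0.0040 (SE 0.09) for Fth1 and -0.03 (SE 0.10) for Ftl1. Blvrb was at 0.05 (SE 0.13), Bach1 at 0.27 (SE 0.23) and Slc11a1 at -0.19 (SE 0.13). Their edgeR adjusted p values with the block were 0.705 to 0.994. The Bach1 level was higher with IL-21 in all 4 pairs of equal number, by 0.03 to 0.65 on the log2 scale, from 17 to 42 counts per library.

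**Figure D3:**
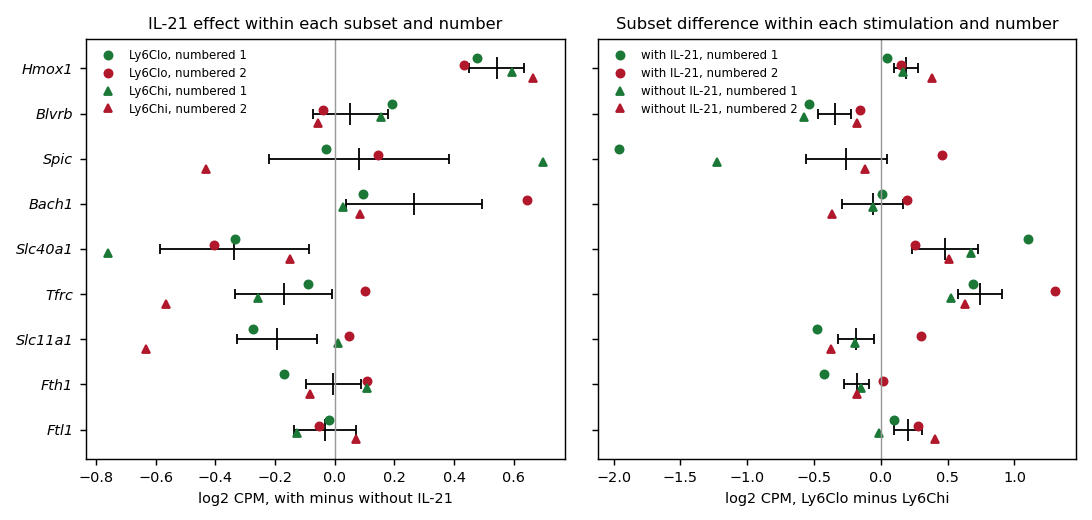
Log2 CPM differences within pairs of libraries of equal number, with minus without IL-21 on the left (circles Ly6Clo, triangles Ly6Chi) and Ly6Clo minus Ly6Chi on the right (circles with IL-21, triangles without), green for number 1 and red for number 2. Black bars are the averaged edgeR log2 fold change and SE with the replicate number as a block; Hmox1 on the left (0.54) and Tfrc on the right (0.74) have all 4 points above 0 and passed with the block.

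The subsets were compared over 4 Ly6Clo and 4 Ly6Chi libraries. Without the block 0 of the 9 genes passed edgeR's test, where 0.19% of all genes did. At an unadjusted p under 0.05 there were 0, where 7.78% of all genes passed, and DESeq2 and limma-voom called 0. In 0 of the 9 did all Ly6Clo libraries lie above, or all lie below, the Ly6Chi libraries, where 2.61% and 2.74% of all genes did. Tfrc was at 273 ± 155 CPM in Ly6Clo and 167 ± 115 CPM in Ly6Chi (SD, n = 4 each). Its log2 fold change was 0.64 (SE 0.74, edgeR adjusted p 0.909). Within a number and stimulation it was higher in Ly6Clo in 4 of 4 pairs, by 0.69 and 0.53 in number 1 and by 1.30 and 0.63 in number 2, with IL-21 given first. Under the block the log2 fold change was 0.74 (SE 0.16), or 1.67-fold, with an edgeR adjusted p of 0.00839. That call was 1 of 9, where 2.51% of all genes passed, and 7 of 8 fits that left out 1 library kept it (0.66 to 0.94). Without the Ly6Clo library that had no IL-21 and was numbered 1 it was 0.76, with an edgeR adjusted p of 0.113. Limma-voom with the block gave an adjusted p of 0.00443, and DESeq2 with the block gave 0.113, which did not pass. As for Hmox1, p values with the block may be too small, since the genes were chosen for the difference between the numbers.

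No other member passed between the subsets. With the block, Slc40a1 was at 0.48 (SE 0.25, edgeR adjusted p 0.379), and its level was higher in Ly6Clo in 4 of 4 pairs. Blvrb was at -0.35 (SE 0.13, edgeR adjusted p 0.165), lower in Ly6Clo in 4 of 4 pairs. Spic showed no common direction, with log2 differences of -1.96 and -1.23 in number 1 and 0.46 and -0.12 in number 2, again with IL-21 first. For Hmox1 (0.19, SE 0.09), Ftl1 (0.20, SE 0.10) and Fth1 (-0.18, SE 0.09) the edgeR adjusted p values with the block were 0.334, 0.381 and 0.36.

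A wider list of 66 heme and iron genes put these values in context. Of the 65 found in the tables, 30 passed the filter, and 9 had 0 counts in every library, among them Hamp (hepcidin), Hpx (hemopexin) and Ltf (lactoferrin). Cd163, the hemoglobin scavenger receptor, had 0 to 2 counts per library. The macrophage marker Itgam was also at 0 in every library, so a 0 here may not mean that a message was absent. Without the block 0 of the 30 passed for IL-21 in edgeR's test, with 1 at an unadjusted p under 0.05, where 0.171% and 5.33% of all genes did. Between the subsets 0 passed, with 2 at that level, where 0.19% and 7.78% of all genes did. With the block 1 of the 30 passed for IL-21 and 2 between the subsets, where 1.14% and 2.51% of all genes did. DESeq2 and limma-voom without the block called 0 in both comparisons. The median log2 fold change of the 30 was 0.04 for IL-21 and 0.01 between the subsets.

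Fbxl5, the iron-sensing subunit of the ligase that marks iron regulatory protein 2 for degradation, was the member of that list with the smallest p for IL-21. It had 68.0 and 129 CPM in the Ly6Clo libraries with IL-21, against 62.8 and 39.3 CPM in those without. In Ly6Chi it had 143 and 169 CPM with IL-21, against 69.7 and 49.6 CPM without. The level was higher with IL-21 in all 4 pairs of equal number. The log2 fold change was 1.21 (SE 0.27, edgeR adjusted p 0.159) without the block and 1.24 (SE 0.25, edgeR adjusted p 0.00533) with it. With no filter on low counts, Fbxl5 also passed edgeR's test without the block, as 1 of 55 genes of the list. With the block, 5 of 8 fits that left out 1 library kept the call. It was lost without the libraries numbered 2 of Ly6Clo with IL-21 (0.89, edgeR adjusted p 0.32), Ly6Clo without IL-21 (0.96, edgeR adjusted p 0.258) or Ly6Chi without IL-21 (1.06, edgeR adjusted p 0.0581). DESeq2 with the block gave an adjusted p of 0.232 and limma-voom gave 0.00497. Next came the lysosomal iron channel Mcoln1 (0.50, SE 0.25), the hemochromatosis gene Hfe (0.62, SE 0.33) and Hp, haptoglobin (1.91, SE 1.21), none of which passed under either fit.

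Between the subsets, Trf and Hp had the smallest p values of the list. Trf, transferrin, had 17.7 to 65.4 CPM in Ly6Clo and 9.53 to 16.4 CPM in Ly6Chi, with no overlap, a pattern that 2.61% of all genes showed. Its log2 fold change was 1.79 (SE 0.62, edgeR adjusted p 0.473) without the block and 1.90 (SE 0.48, edgeR adjusted p 0.0249) with it, from 2.24 to 16 counts per library. The call was kept in 3 of 8 fits that left out 1 library. It was lost without either unstimulated Ly6Clo library (edgeR adjusted p 0.254 and 0.0774), and without the libraries numbered 1 of Ly6Clo with IL-21 (0.3332), Ly6Chi with IL-21 (0.258) or Ly6Chi without IL-21 (0.172), at log2 fold changes of 1.46 to 1.92. Limma-voom with the block gave an adjusted p of 0.0656, and DESeq2 with the block gave no adjusted p for Trf. Hp had 0 to 50.0 CPM in Ly6Clo and 34.1 to 333 CPM in Ly6Chi, and the highest values, 333 and 240 CPM, belonged to the Ly6Chi libraries numbered 1. Libraries numbered 2 reached at most 49.6 CPM, within the Ly6Clo range. The log2 difference of Hp, number 1 minus number 2, was 2.59 in each Ly6Chi group. In Ly6Clo it was 0.19 with IL-21 and -0.96 without. The block fits 1 common shift for all 4 groups, which Hp did not show. With the block its log2 fold change was -3.14 (SE 0.53, edgeR adjusted p 0.00948), kept in 7 of 8 such fits. Without the Ly6Chi library that had no IL-21 and was numbered 1 it was -2.72 (edgeR adjusted p 0.134). DESeq2 and limma-voom with the block did not call it (adjusted p 0.0753 and 0.067). As for Hmox1, p values with the block may be too small. Neutrophils also express Hp, and their markers summed to 66.4 to 137 CPM in Ly6Clo and 113 to 183 CPM in Ly6Chi. Nearly all of that sum was S100a8 (45.7 to 139 CPM) and Csf3r (20.6 to 42.2 CPM). Retnlg, Ngp, Mpo and Elane were at 0 in every library, so the sum does not show that neutrophils were present. The part of neutrophils was not tested. Txnrd1 (-0.35, SE 0.17) and Gclc (0.51, SE 0.29), both antioxidant genes, did not pass under either fit.

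Across the replicate numbers, 5 of the 30 genes were lower in number 1 in all 4 groups and 5 were higher in all 4, against 14.5% and 14% of all genes tested. Among those with a mean of at least 20 counts, Alas1, the first enzyme of heme synthesis, had 122 to 305 CPM in number 1 and 78.2 to 104 CPM in number 2 (mean log2 difference 0.89, SD 0.72). Slc48a1, which carries heme out of the phagolysosome, had 504 to 610 CPM in number 1 and 702 to 986 CPM in number 2 (-0.66, SD 0.19). The glutathione and redox genes Gclm (-0.53, SD 0.22) and Srxn1 (-0.61, SD 0.23), known targets of NRF2, were lower in number 1. Nfe2l2, the gene of NRF2 itself, was higher in number 1 (0.53, SD 0.32), and so was Lrp1, a receptor that takes up hemopexin-bound heme (0.43, SD 0.15). These 6 genes did not overlap between the numbers, and neither did Mafg, a small MAF protein that pairs with NRF2 and BACH1, named here after its values were seen (384 to 408 CPM in number 1 and 438 to 622 CPM in number 2). So 4 of the 30 lay below in number 1 and 3 above without overlap, where 5.96% and 5.1% of all genes did.

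**Figure D4:**
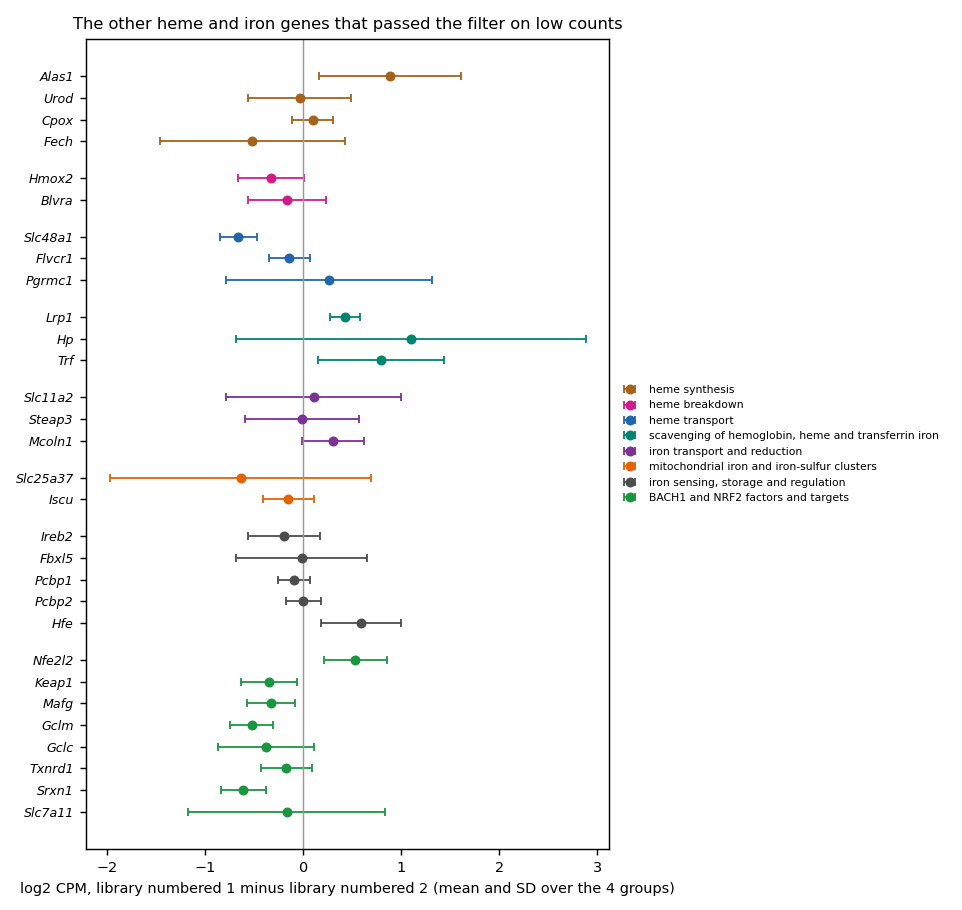
Mean and SD over the 4 groups of the log2 CPM of the library numbered 1 minus the library numbered 2 for the 30 other heme and iron genes that passed the filter, coloured by list. Alas1 (0.89), Nfe2l2 (0.53) and Lrp1 (0.43) lie to the right of 0, and Slc48a1 (-0.66), Srxn1 (-0.61) and Gclm (-0.53) to the left.

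The genes most like Slc40a1 over the 8 libraries, by Pearson r of log2 CPM among 2913 candidates with a mean of at least 20 counts, were Il7r (0.98), Ccl5 (0.98), Gdf15 (0.98), Gm9917 (0.97) and Basp1 (0.97). Ccl5, a chemokine gene, had 150 to 297 CPM in libraries numbered 1 and 1261 to 2032 CPM in those numbered 2. Those most like Tfrc were Cpd (0.99), Lcp1 (0.97), Rps26 (0.96), Rps16 (0.96) and Gsto1 (0.96), of which the ribosomal genes share reads with near-identical copies. Cpd, a carboxypeptidase gene, had 102 to 145 CPM in number 1 and 42.2 to 73.9 CPM in number 2. Such correlations rest on 8 libraries that fall into the 2 numbers, and they describe that split.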

How the data were processed

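The authors deposited expected counts per Ensembl gene, estimates that are often not whole and are called raw per the file headers, from QuantSeq 3′ libraries with a module for unique molecular identifiers, per the labels' protocols. Per the submitters' processing notes, the genome build was mm10 and DESeq2 was used, with no version named. Which aligner and counter produced the values is not given in the sources used here, nor is any use of strand or of the identifiers. Of the values above 0, 53.3% to 59.7% were not whole at a tolerance of 0.001.

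Counts were rounded, since whole counts had been assumed. Symbols and coordinates came from GENCODE M21 (GRCm38, the build called mm10), which matched 53237 of 53342 identifiers. The edgeR filter filterByExpr (minimum count 10, minimum total 15) left 5256 genes, scaled by TMM and fitted in 1 model of 4 group means with the robust quasi-likelihood test of edgeR 4.0.16 (limma 3.58.1, DESeq2 1.42.0, R 4.3.3). The fit had 4 residual degrees of freedom, and p values were adjusted by Benjamini-Hochberg over all genes tested. Log2 CPM used a prior count of 2. The fit without the block was tried on simulated counts for the averaged IL-21 effect, with no difference between the numbers. That trial did not cover the fit with the block.

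Deviations from the group means correlated between libraries of equal number in all 6 pairs of groups (r = 0.24 to 0.42 over the genes tested). The numbers were therefore also fitted as a block. The numbers stand in the sample titles, which do not say what they mean. The choice to treat them as pairs comes from the data.

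The members and gene lists were chosen with earlier results of these data known. Named beside the members are genes of the wider list that passed, the 4 with the smallest p per averaged comparison, and the up to 6 with the largest difference between numbers among those with the same sign in all 4 groups. Also named are the 5 genes most like Slc40a1 and Tfrc. Socs3 served as a check of the stimulation. Alternatives were RLE factors, other filters, DESeq2, limma-voom, unrounded counts, single subsets and leaving out each library. Total counts limit precision, and intervals are not given because identifiers may not have been used. A gene was left out of the marker lists and is not reported here.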

Additional observations from a re-analysis of the deposited data

How the results depend on the processing

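Of the 591 values recomputed under another setting, 480 kept their direction and their side of the threshold. With no filter on low counts the calls over all genes were 35 for the averaged IL-21 effect, 8 in Ly6Chi, 16 in Ly6Clo, 1 for the difference between these effects and 58 between the subsets, against 9, 1, 7, 0 and 10. Under the replicate block they were 60, 14, 29, 1 and 132, and 1 member was called for the averaged IL-21 effect and in Ly6Chi (Hmox1) and 1 between the subsets (Tfrc). In Ly6Clo there were 2 calls with a mean count of at least 20, 4 with limma-voom, 3 with unrounded counts and 0 with the Ly6Clo libraries alone, where the cause was not tested. With 1 library left out the calls ranged from 5 to 15, 0 to 3, 0 to 7, 0 to 0 and 3 to 22. No member was called in any of those 8 fits. Where such a fit leaves a group with 1 library, that library is assumed to vary like the others.

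Without the block, leaving out 1 library unbalances the numbers, and fold changes of genes that differ by number then moved most. For the averaged IL-21 effect the log2 fold change ranged from -0.019 to 1.14 for Hmox1, -1.78 to 0.67 for Slc40a1, -1.65 to 1.53 for Spic, -0.88 to 0.43 for Tfrc, -0.14 to 0.12 for Fth1, -0.17 to 0.13 for Ftl1 and -0.11 to 0.27 for Blvrb. Hmox1 ranged from -0.41 to 1.65 in Ly6Chi, from -0.69 to 1.63 in Ly6Clo and from -1.33 to 0.98 for the difference of these effects. Between the subsets the range was -0.36 to 0.75 for Hmox1, -0.43 to 2.02 for Slc40a1, -1.64 to 0.74 for Spic, 0.15 to 1.38 for Tfrc and -0.18 to 0.045 for Bach1. Values near 0 changed sign for Fth1 with IL-21 (0.0018 with no filter, 0.0014 unrounded), for Spic with IL-21 (0.015 with DESeq2, 0.030 with limma-voom, 0.083 with the block) and for Spic between the subsets (0.020 with no filter, 0.0053 unrounded). The difference of Cp between numbers ranged from -0.56 to 0.054 with 1 group left out.

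The blocked fits with 1 library left out, or with DESeq2 or limma-voom, were chosen after seeing the data. Fold changes of the other members within a subset are not reported singly, and 69 of 376 such values changed sign. The block changed no call of a member other than those named. At 0 to 10 counts, as for Cp in every library and Slc40a1 in those numbered 1, depth limits any comparison.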
